A study of Mus musculus with 9 samples.

Results

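The genes described here encode splicing factors and RNA helicases, chosen by symbol from the SR proteins and their kinases, the hnRNP proteins, the Sm and LSm proteins, the SF3, U2AF, Prpf, Rbm, CELF, STAR and PTB families and the DEAD-box (Ddx) and DEAH-box (Dhx) helicases. Of 204 protein-coding mouse genes in these families, 112 were among the 5301 genes of the deposited table, and the other 92 were not analysed here. RNA-seq had been performed on 6DT1 cells, a mouse mammary cancer line. They come from a tumor of an MMTV-Myc transgenic mouse, in which a mammary promoter drives Myc, and match the FVB/NJ strain. Each cell line carried a lentiviral hairpin and was grown under puromycin: a scramble hairpin in the shControl group, which the labels call wildtype, or 1 of 2 shRNAs against Resf1, H4 and H6, in the shH4 and shH6 groups. Each group was 1 transduced line seeded in 3 dishes, giving 9 libraries, so the hairpin and the line cannot be told apart and p-values measure only the spread between dishes. The comparison asked how the levels of these transcripts differed between Resf1 knockdown (KD) cells and control cells, and whether both hairpins did so alike.

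Pre-mRNA splicing removes introns in the spliceosome, a machine built from small nuclear RNAs, the Sm and LSm rings that coat them and many further proteins. SR proteins bind exons and mostly promote the use of nearby splice sites, while hnRNP proteins bind nascent RNA widely and often repress splice sites. CLK and SRPK kinases phosphorylate the serine-arginine domains of SR proteins. DEAD-box and DEAH-box helicases use ATP to remodel RNA and RNA-protein complexes in splicing, ribosome assembly, mRNA export, translation and decay. Many of these genes also control their own mRNA through alternative exons, and gene-level values do not separate such isoforms.

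The values are normalized counts, that is, estimated reads per gene divided by a size factor for the library. The estimated reads in listed genes numbered between 10.5 M reads (shH6 replicate 3) and 19.9 M reads (shControl replicate 1). Resf1 itself, the targeted gene, stood at 1585 ± 29.3 normalized counts in the control line and at 982 ± 31.7 with H4 and 1121 ± 8.88 with H6 (mean ± SD over 3 dishes), which are log2 fold changes of -0.69 and -0.50. Of the 5 markers of mammary epithelium chosen for a check of the cell type, 2 were listed, Krt8 and Krt18. Their sum ran from 26600 to 29000 normalized counts in shControl, from 22400 to 23900 in shH4 and from 24800 to 27900 in shH6. Both fell in shH4 (-0.25 and -0.32), and their changes of -0.08 and -0.07 in shH6 did not pass the test. Of 5 mesenchymal, 5 leukocyte and 3 endothelial markers, 1, 1 and 2 were listed. Pdgfra rose with both hairpins (69.7 to 108 normalized counts in shControl, 119 to 162 in shH4, 128 to 157 in shH6), Cd68 fell with both (608 to 668, 197 to 245, 191 to 234), and the sum of Pecam1 and Cdh5 was higher in shH4 (173 to 208) than in shControl (20.2 to 30.7) or shH6 (up to 31.2). None of these 6 listed markers was at 0 in any library. The other markers were not analysed here, and the part of these genes in the changes below was not tested.

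The hairpin sequences are shown with bases 2 to 8, counted from the 5′ end as the labels print them, in capitals, because a match of this stretch to another transcript is the usual check for an effect on a gene other than the target.
H4: tTTCGATTtgtaacataggtc
H6: aAACAACCaagttacctcagg
The longest stretch of H4 that was complementary to a member transcript had 10 of its 21 bases, in Rbm12b1, and that of H6 had 11, in Ddx21. In the members that fell, the longest stretches had 8 and 9 bases. The complement of bases 2 to 8 of H4 was found in 4 of the 112 member transcripts, 4 of them of genes higher and 0 of genes lower with both hairpins. That of H6 was found in 26, with 24 of genes higher and 1 of genes lower. Matches in the transcripts of other listed genes were not counted, so these counts cannot be called high or low. The part of these matches in the changes was not tested.

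Most of the listed splicing factor and helicase genes were modestly higher in both KD lines, and a smaller group was lower. In shH4, 96 of 112 members rose and 12 fell. Of all listed genes, 49.2% rose and 46.5% fell in shH4. In shH6, 98 members rose and 12 fell, against 49.1% and 46.9% of all listed genes. Both hairpins together called 94 members higher and 12 lower, where the same shares over all listed genes were 47.2% and 44.6%. Nearly every gene in the table was called, and all of its genes moved in 1 direction with both hairpins, so the table is not a sample of all genes. The share called therefore says little about the members, and it is the balance of rises and falls that the counts describe. Adjusted p-values were computed within this selected table, so they do not give the rate of false calls over all genes. The remaining 6 members were not called by 1 of the hairpins, and their fitted changes were positive: Srsf5, Lsm4, Lsm11 and Ddx11 in shH4, and Rbm25 and Hnrnph2 in shH6.

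The changes were small in size. The median log2 fold change of the members was 0.24 in shH4 and 0.23 in shH6, against 0.10 and 0.09 over all listed genes. The middle part of the members, between the quartiles, lay from 0.16 to 0.33 in shH4 and from 0.16 to 0.31 in shH6. That of all listed genes lay from -0.29 to 0.25 and from -0.30 to 0.25, with 2712 positive and 2589 negative changes in each. The median of all listed genes thus reflects the balance of signs more than the size of a change. Over 1.2-fold in both hairpins were 43 members (38.4%), close to the 40.0% of all listed genes. Over 1.5-fold in both hairpins were 0 members, against 464 listed genes (8.75%). Single members ran from -0.58 to 0.50 in shH4 and from -0.91 to 0.52 in shH6. All 6 KD libraries lay above all 3 shControl libraries for 89 members and below them for 12, against 43.5% and 42.8% of all listed genes. In bulk RNA, fewer cells of a kind and less RNA per cell cannot be told apart, and the values are shares of the RNA that was counted.

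**Figure D1:**
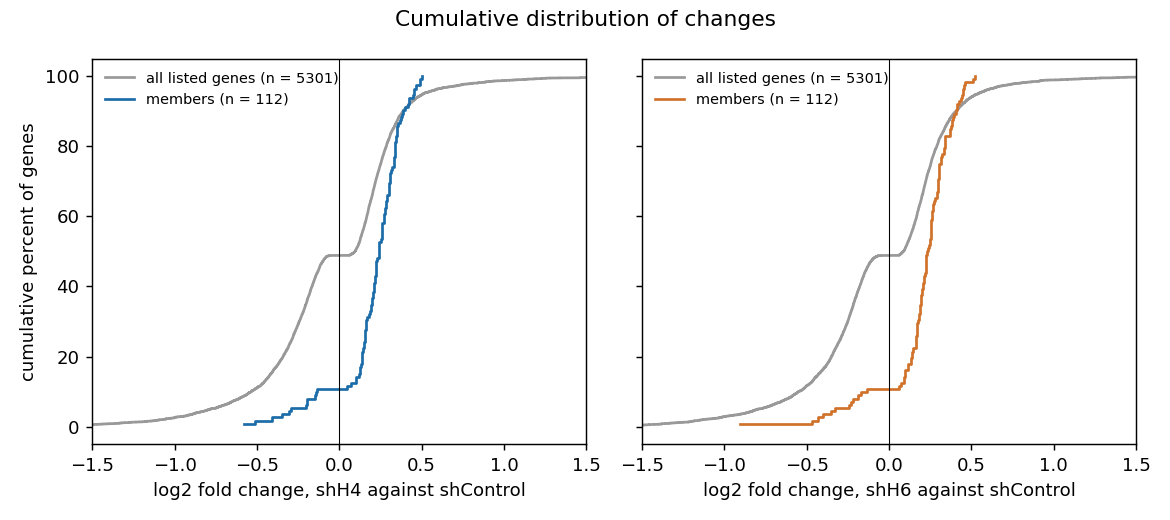
Cumulative percent of genes (y axis) against the log2 fold change from shControl (x axis) for shH4 (left) and shH6 (right), with all 5301 listed genes in grey and the 112 members in color; values beyond 1.5 on the log2 scale are outside the axes. The member curve is steep between about 0.1 and 0.5, where most members lie, and has a short tail of 12 members below 0 in each panel.

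Library by library, the median member stood at -0.02, 0.03 and 0.00 in the 3 shControl libraries, relative to the shControl mean on the log2 scale. It stood at 0.25, 0.23 and 0.24 in shH4 and at 0.24, 0.22 and 0.24 in shH6. All 6 KD libraries thus sat apart from the 3 control libraries, with 99 or 100 members above the shControl mean in each, against 27, 78 and 57 in the control libraries. The median of all listed genes stood between 0.04 and 0.07 in the KD libraries. The summed counts of the members rose from 371500 ± 7890 in the control line to 442200 ± 5930 with H4 and 438800 ± 2340 with H6, or by 19.0% and 18.1%.

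**Figure D2:**
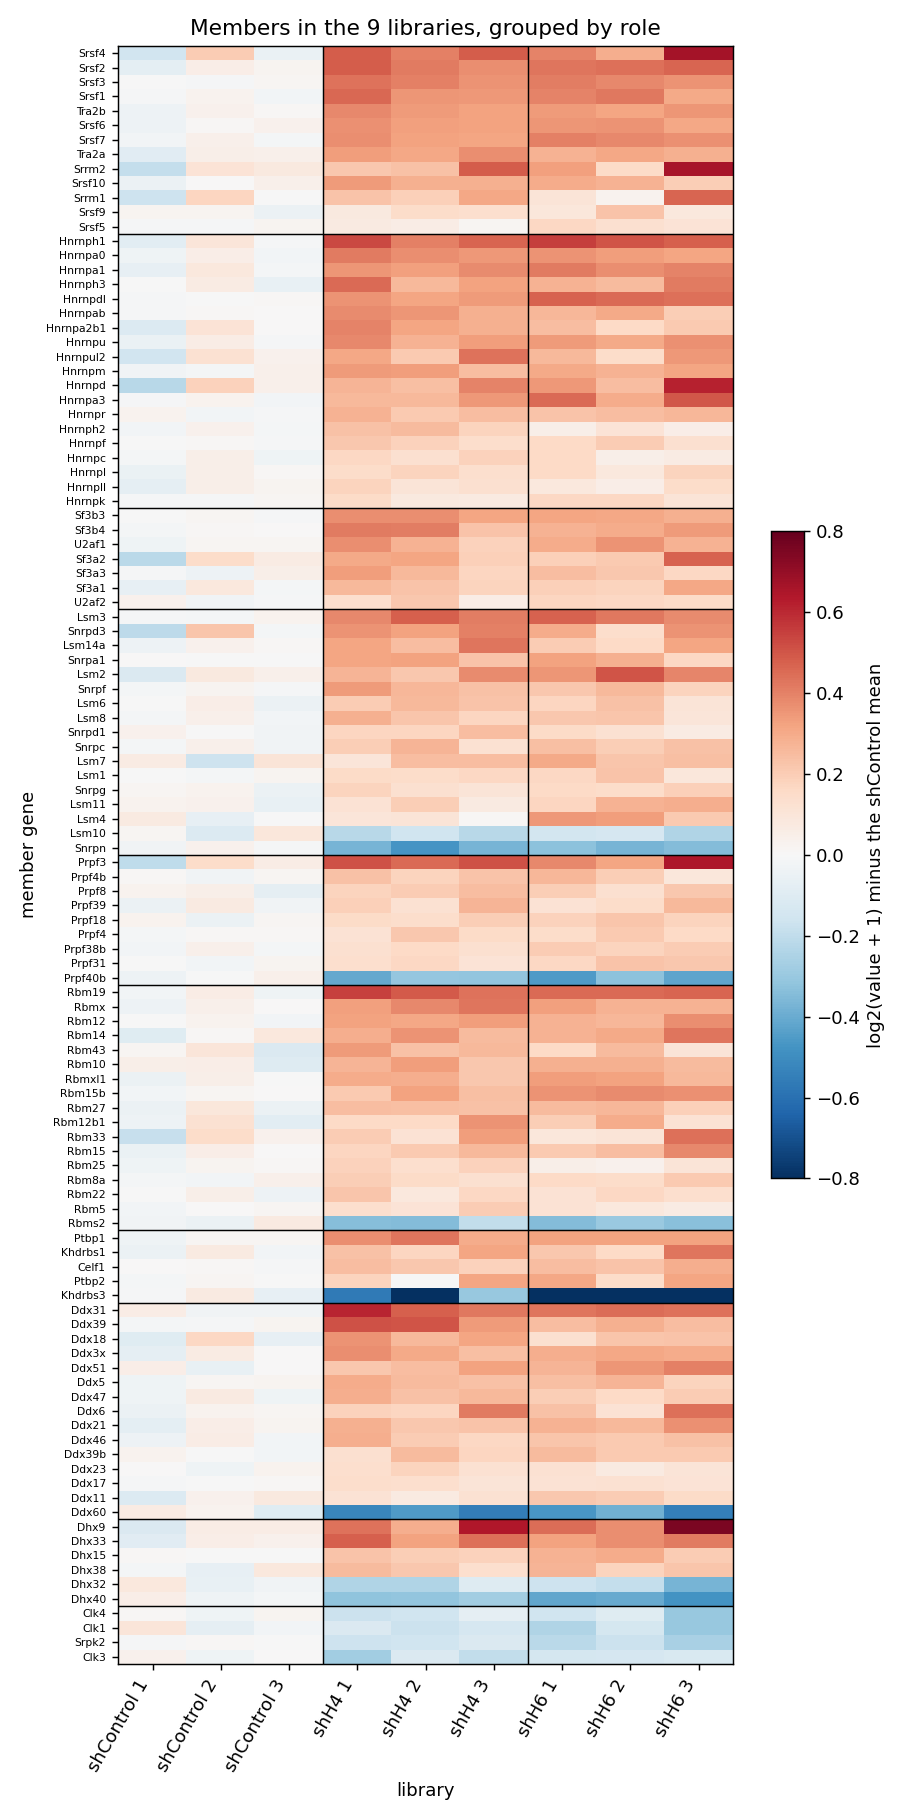
Log2(value + 1) minus the shControl mean (color, cut off at 0.8 in either direction) for the 112 members (rows, grouped by role and ordered by the shH4 change) in the 9 libraries (columns). Red fills the 6 KD columns of nearly every group, and blue marks the 12 members that fell, including all 4 listed CLK and SRPK genes in the last block.

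The SR proteins and SR-related splicing activators had the highest median change of the 10 classes. Of 17 genes in this class 13 were listed, 12 rose with both hairpins, none fell, and the median log2 fold change was 0.34 in each. Srsf2, an SR protein that promotes exon inclusion, had 6530, 7153 and 7007 normalized counts in shControl, 9627, 9176 and 8914 in shH4 and 9257, 9345 and 9528 in shH6. The lowest KD library stood well above the highest control library, at log2 fold changes of 0.42 ± 0.04 (SE, adjusted p = 1.69e-07) and 0.44 ± 0.04 (adjusted p = 1.03e-07). Srsf1, the prototype of the family and a known oncoprotein, had 9830, 10093 and 9750 in shControl, 13587, 12613 and 12554 in shH4 and 12999, 13273 and 12194 in shH6. Its KD libraries all lay above its control libraries too, and it rose by 0.38 and 0.37 on the log2 scale. Srsf3, which also acts in mRNA export, rose from 6643 ± 55.6 to 8753 ± 219 and 8680 ± 144. Srsf7 and Tra2b, a further SR protein and an SR-like activator of exons, rose by 0.34 and 0.38 and by 0.35 and 0.34.

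Some members of the class were less steady. Srsf4, which rose most in it (0.46 and 0.45), had 776, 992 and 831 in shControl, 1204, 1138 and 1208 in shH4 and 1133, 1054 and 1367 in shH6. Srrm2, a large spliceosome-associated and nuclear speckle protein, had 5270, 6481 and 6359 in shControl, 6982, 7057 and 8413 in shH4 and 7538, 6697 and 9494 in shH6. Srrm1, its partner in splicing coactivation, had 1081, 1361 and 1205, then 1420, 1383 and 1498, then 1300, 1232 and 1668. In all 3 genes shControl replicate 1 was lowest and shH6 replicate 3 was highest, the libraries with the most and the fewest estimated reads, and the part of depth in this was not tested. Srrm1 overlapped between shH6 and the other 2 groups, while its shH4 libraries all lay above its shControl libraries. Without shH6 replicate 3 its log2 fold change in shH6 was 0.06 (adjusted p = 0.378) in place of 0.20 (adjusted p = 0.047), without shControl replicate 1 it was 0.12 (adjusted p = 0.223), and leaving out shControl replicate 3 or any 1 shH4 library also ended the shH6 call. In shH4 the Srrm1 call was lost without shControl replicate 1 or shH4 replicate 3, and the Srrm2 call without shH4 replicate 3 (0.22, adjusted p = 0.0611). Upper-quartile scaling took the Srrm1 call in shH4 (0.18, adjusted p = 0.0693) and in shH6 (0.15, adjusted p = 0.137). A fit of the compared groups alone also took it in shH6 (adjusted p = 0.0725). Srsf5 stood apart at the other end, with 6656 ± 85.9 in shControl, 6888 ± 141 in shH4 and 7308 ± 147 in shH6. Its change was 0.05 in shH4, which did not pass the test (adjusted p = 0.145) and became -0.01 with upper-quartile scaling, and 0.13 in shH6 (adjusted p = 0.0012).

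The CLK and SRPK kinase genes went the other way. Of 7 such genes 4 were listed, and all 4 fell with both hairpins, by a median of -0.14 in shH4 and -0.20 in shH6. Prpf4b, a further kinase gene that was counted in the Prpf class, rose by 0.21 and 0.19. Clk1 had 4464, 3975 and 4119 normalized counts in shControl, 3865, 3704 and 3810 in shH4 and 3536, 3789 and 3386 in shH6. Its lowest control library lay just above its highest KD library, and the log2 fold changes were -0.14 ± 0.05 (SE, adjusted p = 0.00978) and -0.23 ± 0.05 (adjusted p = 0.000333). Clk4, its close relative, had 1613, 1564 and 1628 in shControl, 1421, 1436 and 1521 in shH4 and 1432, 1499 and 1296 in shH6, a change of -0.13 and -0.19. Clk3 had 1801, 1716 and 1767 in shControl, 1450, 1627 and 1539 in shH4 and 1596, 1605 and 1616 in shH6, a change of -0.20 and -0.13. Srpk2, a mainly cytoplasmic kinase that primes SR proteins for nuclear import, had 1814, 1838 and 1817 in shControl, 1625, 1630 and 1684 in shH4 and 1568, 1615 and 1520 in shH6, a change of -0.15 and -0.22. For none of the 4 did a KD library reach the range of the control libraries. Some of these calls depended on 1 library. In shH4 the Clk1 call was lost without shControl replicate 1 (-0.09, adjusted p = 0.068), and the Clk4 call without shControl replicate 3, shH4 replicate 1 or shH4 replicate 2. Scaling the libraries to equal column totals took the Clk3 call in shH6.

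Summed over the class, the 13 SR protein genes rose by 25.2% in shH4 and 26.2% in shH6, and the 4 kinase genes fell from 9372 ± 302 to 8437 ± 102 and 8152 ± 347 normalized counts. The ratio of the SR protein sum to the kinase sum, which does not depend on how libraries are scaled, was 6.05, 6.84 and 6.58 in shControl, 9.25, 8.93 and 8.86 in shH4 and 9.43, 8.91 and 9.92 in shH6. The 6 KD libraries all lay above the 3 control libraries, and the 2 KD lines overlapped. The kinase sum leaves out Prpf4b, which rose. The ratio was formed after the directions were known and carries no test.

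**Figure D3:**
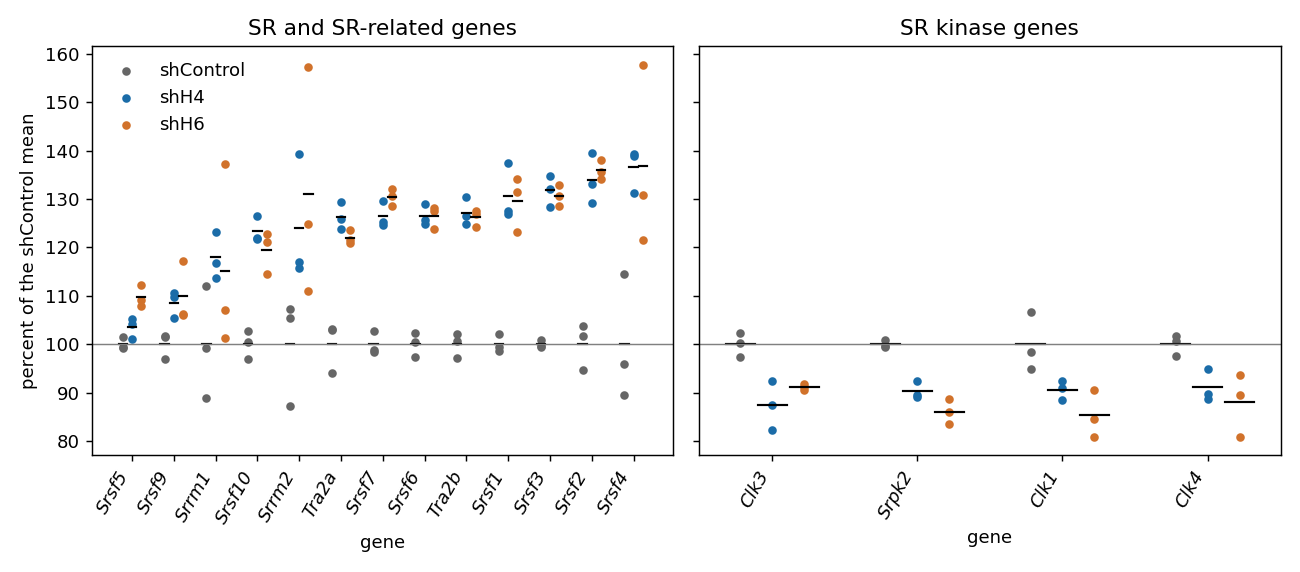
Normalized counts of each library as a percent of the shControl mean (y axis; it does not start at 0) for the 13 SR and SR-related genes (left) and the 4 SR kinase genes (right). Points are libraries and black bars are group means. Most SR genes reach 120% to 140% in both KD lines, Srsf9 and, in shH6, Srsf5 are near 110%, and the 4 kinases lie between about 80% and 95%.

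Promoter sequences are shown for 4 SR protein genes that rose and 2 kinase genes that fell, because their transcripts moved in opposite directions. Each runs from 150 bases before to 20 bases into the transcript start on the gene's strand (RefSeq, GRCm38.p6), with matches to CCAAT (or its reverse complement, ATTGG), to the ETS core CCGGAAG, to the E-box CACGTG and to the core NRF1 site in capitals, both strands searched. The windows are chr11:88047223-88047392 on the plus strand for Srsf1, chr11:116853075-116853244 on the minus strand for Srsf2, chr17:29032510-29032679 on the plus strand for Srsf3, chr17:80207286-80207455 on the minus strand for Srsf7, chr9:57765095-57765264 on the minus strand for Clk3 and chr11:51262964-51263133 on the plus strand for Clk4.
Srsf1: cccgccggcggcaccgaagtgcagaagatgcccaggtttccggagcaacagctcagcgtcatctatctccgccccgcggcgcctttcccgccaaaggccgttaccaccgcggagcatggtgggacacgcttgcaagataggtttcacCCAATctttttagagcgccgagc
Srsf2: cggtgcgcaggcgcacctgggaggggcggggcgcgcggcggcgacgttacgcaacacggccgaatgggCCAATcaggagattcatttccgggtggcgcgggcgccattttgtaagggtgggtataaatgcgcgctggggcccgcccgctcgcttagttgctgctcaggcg
Srsf3: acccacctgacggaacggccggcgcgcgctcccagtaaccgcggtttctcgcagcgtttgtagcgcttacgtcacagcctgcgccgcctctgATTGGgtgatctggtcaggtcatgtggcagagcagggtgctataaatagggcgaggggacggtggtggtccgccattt
Srsf7: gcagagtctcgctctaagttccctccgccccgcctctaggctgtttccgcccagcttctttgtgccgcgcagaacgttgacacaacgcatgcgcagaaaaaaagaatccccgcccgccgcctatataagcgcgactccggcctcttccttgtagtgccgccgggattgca
Clk3: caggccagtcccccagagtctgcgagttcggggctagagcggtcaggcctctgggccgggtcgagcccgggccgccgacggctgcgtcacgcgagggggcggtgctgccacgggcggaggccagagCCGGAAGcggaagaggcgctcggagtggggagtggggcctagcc
Clk4: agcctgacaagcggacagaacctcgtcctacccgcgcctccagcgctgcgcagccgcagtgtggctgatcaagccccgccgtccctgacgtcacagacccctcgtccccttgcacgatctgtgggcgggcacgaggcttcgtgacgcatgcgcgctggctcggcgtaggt
The Srsf1, Srsf2 and Srsf3 windows each hold 1 CCAAT match, 3, 82 and 58 bases before the start, and the Srsf7 window holds none of the 4 motifs. The Clk3 window holds 1 ETS core, 24 bases before the start, and the Clk4 window holds none of them. Over the wider windows of 250 bases before to 50 after the start, 122 windows matched 92 of the 112 members by symbol. CCAAT was present in 41.8% of member windows, 37.9% of windows of listed protein-coding genes and 37.4% of all windows. The E-box, the sequence bound by MYC with MAX, was present in 13.1%, 9.95% and 7.15%, and the ETS core in 19.7%, 17.4% and 8.86%. Myc itself fell in shH4 (-0.35) and in shH6 (-0.30), and its part in the changes was not tested. Of the windows of members that rose with both hairpins and of those that fell, 43.4% and 36.8% held CCAAT, 13.1% and 10.5% the E-box, and 22.2% and 5.26% the ETS core. These were 99 windows of 78 genes and 19 windows of 10 genes, so windows of 1 gene are not independent, and the 5.26% is 1 window. A match of letters is a description and not a bound site.

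The hnRNP proteins were the most completely listed class, with 19 of 20 genes. All 19 rose in shH4 and 18 in shH6, with medians of 0.31 and 0.25 and no gene lower. Hnrnph1, which binds G-rich RNA and regulates exon choice, rose most of all members by the smaller of its 2 changes, from 6251, 7080 and 6580 normalized counts in the control line to 9540, 8749 and 9155 in shH4 and 9726, 9385 and 9239 in shH6. Its log2 fold changes were 0.46 ± 0.04 (SE, adjusted p = 2.21e-07) and 0.51 ± 0.04 (adjusted p = 8.44e-08). No KD library overlapped the controls, and the 2 KD lines overlapped each other. Hnrnpa1, a repressor that counters SR proteins at many exons, rose from 5102 ± 275 to 6515 ± 113 and 6706 ± 114. Hnrnpu, a nuclear scaffold protein, rose from 18238 ± 726 to 22961 ± 854 and 23029 ± 488. Hnrnpa2b1, which binds and sorts many mRNAs, had the highest level per kb of any member in shControl (10386 normalized counts per kb of transcript) and rose by 0.33 and 0.21. Hnrnpk, a poly(C)-binding protein, rose least in shH4, by 0.10 (adjusted p = 0.0101), and by 0.14 in shH6. Its call in shH4 was lost without shH4 replicate 1 (0.08, adjusted p = 0.0562) and with upper-quartile scaling (0.04). As a class the hnRNP sum rose by 20.9% and 19.2%. Hnrnpa1 and Hnrnpk shared 46.4% and 34.5% of their 50-base windows with other genes, so reads could be split with those copies. The gene that shared most was a processed pseudogene for each.

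Among the other regulators of splice site choice, 5 of 12 CELF, STAR and PTB genes were listed, of which 4 rose and 1 fell. Ptbp1, the polypyrimidine tract binding protein that represses neuronal exons, rose from 7550 ± 163 to 9742 ± 429 and 9443 ± 13.5. Its paralog Ptbp2 rose by 0.16 (adjusted p = 0.041) and 0.26 (adjusted p = 0.0039), though its shH4 libraries overlapped those of shControl, and its shH4 call was lost with upper-quartile scaling and without any 1 shControl library, shH4 replicate 1 or shH4 replicate 3. Celf1, which binds GU-rich RNA, rose from 4410 ± 31.6 to 5121 ± 114 and 5262 ± 110. Khdrbs1 (Sam68), a STAR family RNA-binding protein, rose by 0.24 and 0.27. The Khdrbs1 paralog Khdrbs3 (SLM2) fell more than any other member, from 247, 261 and 237 normalized counts in the control line to 168, 136 and 200 in shH4 and 132, 135 and 128 in shH6. No KD library reached the control range, and the log2 fold changes were -0.58 ± 0.12 (SE, adjusted p = 0.000344) and -0.91 ± 0.12 (adjusted p = 4.92e-06), or 1.49-fold and 1.88-fold lower. The difference between the hairpins of -0.33 did not pass the test (adjusted p = 0.0956).

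The factors that recognize the 3′ splice site and the branch point rose throughout. All 7 listed genes of 13 rose with both hairpins, by medians of 0.27 and 0.29, and all 6 KD libraries lay above the controls for each. U2af1 and U2af2, the subunits of the U2 auxiliary factor, rose from 577 ± 11.4 to 701 ± 45.3 and 717 ± 20.6, and from 5678 ± 124 to 6247 ± 327 and 6354 ± 47.8. With upper-quartile scaling the U2af2 change in shH4 was 0.08 and no longer passed. Sf3b4, a subunit of the SF3b complex of the U2 snRNP, rose from 836 ± 8.26 to 1068 ± 76.5 and 1033 ± 24.2. U2af1 and Sf3b4 shared 59.4% and 49.3% of their windows with other genes.

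Among the Sm, LSm and snRNP-specific proteins, 17 of 25 were listed, 13 rose with both hairpins and 2 fell. Snrpd1, a core Sm protein, rose from 1639 ± 37.6 to 1881 ± 58.0 and 1774 ± 52.2, and its shH6 call was lost without shControl replicate 3 or shH6 replicate 1 (both 0.10) and with upper-quartile scaling (0.06). Lsm2 and Lsm3, subunits of the ring on U6 RNA, rose by 0.29 and 0.42 and by 0.42 and 0.42. Snrpn, the imprinted paralog of the Sm protein SmB, fell from 301, 315 and 304 normalized counts in the control line to 236, 221 and 237 with H4 and 243, 237 and 240 with H6. Every KD library lay below every control library, the 2 KD lines overlapped, and the log2 fold changes were -0.41 and -0.35. Lsm10, a subunit of the U7 snRNP that processes histone mRNA, fell from 691 ± 48.7 to 601 ± 15.4 and 612 ± 23.9, a change of -0.20 and -0.17, and its call in shH6 was lost without shControl replicate 3 (-0.13, adjusted p = 0.0818) or shH6 replicate 3 (-0.14, adjusted p = 0.0508). Lsm11, the other U7-specific member, had a positive change of 0.13 that did not pass in shH4 and rose by 0.25 in shH6.

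The Prpf proteins belong mostly to the U4/U6.U5 tri-snRNP and the early spliceosome. Of 13 genes 9 were listed, 8 rose and 1 fell. Prpf8, the scaffold at the center of the spliceosome, rose from 11041 ± 488 to 12752 ± 317 and 12501 ± 401. Prpf3, of the U4/U6 snRNP, rose most, with 495, 631 and 593 in shControl, 812, 780 and 810 in shH4 and 744, 709 and 894 in shH6. It was also lowest in shControl replicate 1 and highest in shH6 replicate 3. Prpf40b, a U1-associated factor, fell from 545 ± 14.6 to 428 ± 16.7 and 412 ± 18.8, a change of -0.35 and -0.40. The Rbm class was listed in 17 of 46 genes, of which 15 rose with both hairpins and 1 fell. Rbm19, which acts in ribosomal RNA processing, rose from 764, 809 and 758 to 1136, 1093 and 1049 in shH4 and 1065, 1065 and 1073 in shH6. All 6 KD values lay above the controls, and those of shH6 lay within the range of shH4. Rbms2, a single-strand RNA-binding protein, fell from 1314 ± 59.1 to 1072 ± 64.6 and 1047 ± 19.5.

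**Figure D4:**
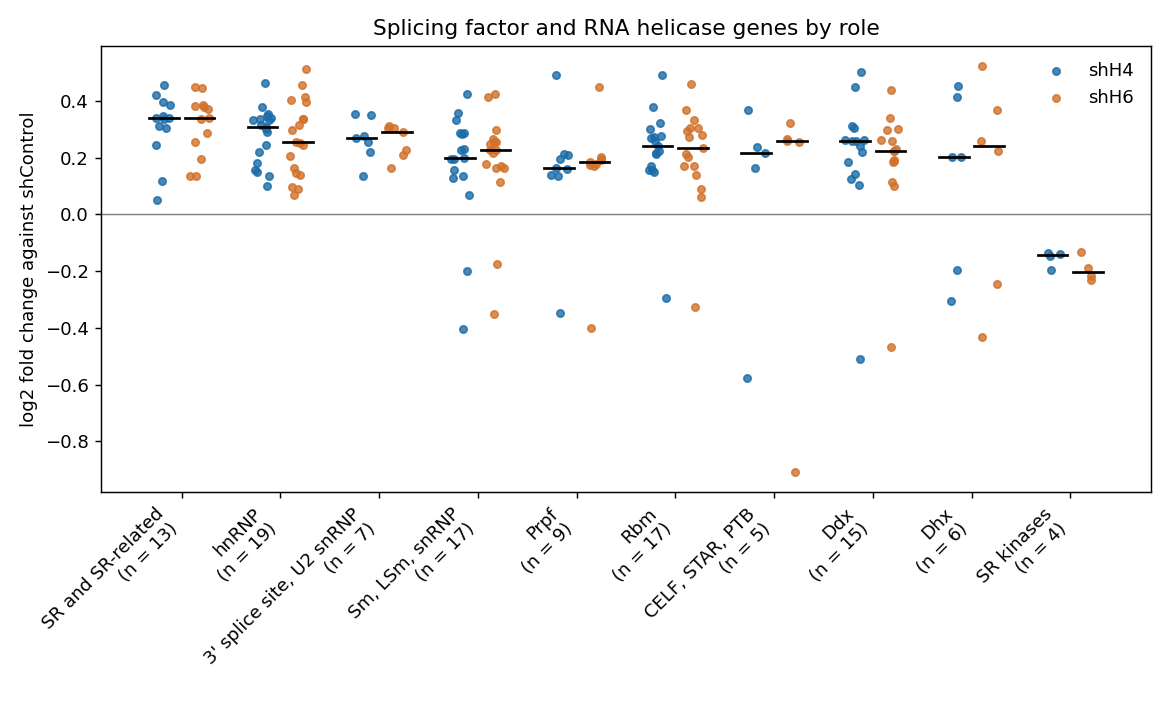
Log2 fold change against shControl (y axis) of each member by role (x axis, with the number of listed members) in shH4 (blue) and shH6 (orange); points are genes and black bars are medians. The SR kinases are the 1 class with all of its points below 0, and single genes lie below 0 in the Prpf, Rbm, Ddx and CELF, STAR and PTB classes.

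The RNA helicases were grouped by their known function, with Ddx5 counted as spliceosomal and its paralog Ddx17 among the others. The 6 listed spliceosomal helicases of 11, the 6 listed ribosome biogenesis helicases of 16 and the 3 listed export, translation and decay helicases of 10 all rose with both hairpins. Of the other 6 listed helicases, 2 rose (Ddx17 and Dhx9) and 3 fell (Ddx60, Dhx32 and Dhx40). The last 1, Ddx11, rose in shH6 while its change of 0.10 in shH4 did not pass (adjusted p = 0.067). The difference between groups of helicases was not tested.

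Ddx5 (p68) and its paralog Ddx17 (p72) are coregulators of splicing and transcription. Ddx5 rose from 15372, 15866 and 15927 normalized counts in the control line to 19284, 18750 and 18515 in shH4 and 18593, 18958 and 17813 in shH6. Ddx17 rose less, from 8882 ± 64.2 to 9693 ± 122 and 9624 ± 43.1, a change of 0.13 and 0.12, and with upper-quartile scaling neither passed (0.06 in each). Dhx15, which takes the spliceosome apart after splicing, rose from 6234, 6185 and 6199 in shControl to 7147 ± 113 and 7431 ± 253. Ddx39b (UAP56), which acts in spliceosome assembly and mRNA export, rose by 0.19 and 0.22. Ddx21, a nucleolar helicase, rose from 4403 ± 204 to 5203 ± 142 and 5429 ± 210, and Ddx31, also of ribosome biogenesis, rose from 332 ± 11.5 to 472 ± 32.6 and 450 ± 3.81. Ddx3x, a helicase of translation initiation, rose from 11097 ± 536 to 13701 ± 636 and 13631 ± 106.

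Dhx9 (RNA helicase A), which unwinds RNA duplexes, R-loops and G-quadruplexes, had the largest rise in shH6. It had 2151, 2430 and 2430 normalized counts in shControl, 3147, 2855 and 3638 in shH4 and 3181, 3014 and 3931 in shH6. Every KD library lay above every control, with replicate 3 the highest in both KD lines. As in Srsf4, Srrm1, Srrm2 and Prpf3, shControl replicate 1 was lowest and shH6 replicate 3 highest, the libraries with the most and the fewest estimated reads, and the part of depth was not tested. The log2 fold changes were 0.45 ± 0.09 (SE, adjusted p = 0.000219) and 0.52 ± 0.09 (adjusted p = 6.02e-05). Dhx40 fell from 1654, 1557 and 1578 to 1276, 1283 and 1315 in shH4 and 1196, 1208 and 1145 in shH6, a change of -0.31 and -0.43. Dhx32 fell from 2017 ± 103 to 1761 ± 99.3 and 1704 ± 129. Ddx60, an interferon-inducible antiviral helicase, had the lowest counts of any member and fell from 126, 123 and 113 to 83.8, 87.9 and 82.2 in shH4 and 87.2, 92.3 and 82.3 in shH6, a change of -0.51 and -0.47.

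Few of these genes differed between the hairpins. Of 112 members 4 (3.57%) differed between shH6 and shH4, against 8.26% of all listed genes. The count was 1 without shH4 replicate 1, 2 without shH6 replicate 1 and 8 with library weights. The libraries of the hairpins did not overlap for 18 members, against 24.8% of all listed genes that did so. Lsm4, a subunit of the LSm rings, had 1361, 1240 and 1294 normalized counts in shControl, 1385, 1391 and 1309 in shH4 and 1649, 1635 and 1503 in shH6. It rose in shH6 by 0.30, while its change of 0.07 in shH4 did not pass the test (adjusted p = 0.183). Between shH6 and shH4 it differed by 0.23 ± 0.05 (SE, adjusted p = 0.00785). Hnrnpdl, an RNA-binding relative of Hnrnpd, had 3169, 3180 and 3208, then 4085, 3962 and 4040, then 4413, 4371 and 4331, and was higher in shH6 by 0.12 (adjusted p = 0.0304). That call was lost with the replicate number as a block (adjusted p = 0.0502), in a fit of the compared groups alone (adjusted p = 0.0653), and without shControl replicate 3, any 1 shH4 library, or shH6 replicate 1 or 2. Ddx39 (URH49), an export helicase and paralog of Ddx39b, had 3117, 3130 and 3195, then 4481, 4453 and 3985, then 3728, 3834 and 3728, and was lower with H6, the difference being -0.19 (adjusted p = 0.00823). Hnrnph2, the X-linked paralog of Hnrnph1, had 1779, 1847 and 1783, then 2121, 2146 and 2039, then 1865, 1941 and 1872, and its difference was -0.15 (adjusted p = 0.022). The Ddx39 call was lost without shH4 replicate 1, and the Hnrnph2 call without shH4 replicate 1 or 2 or shH6 replicate 1. Hnrnph1 itself did not pass this test (0.05, adjusted p = 0.591).

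**Figure D5:**
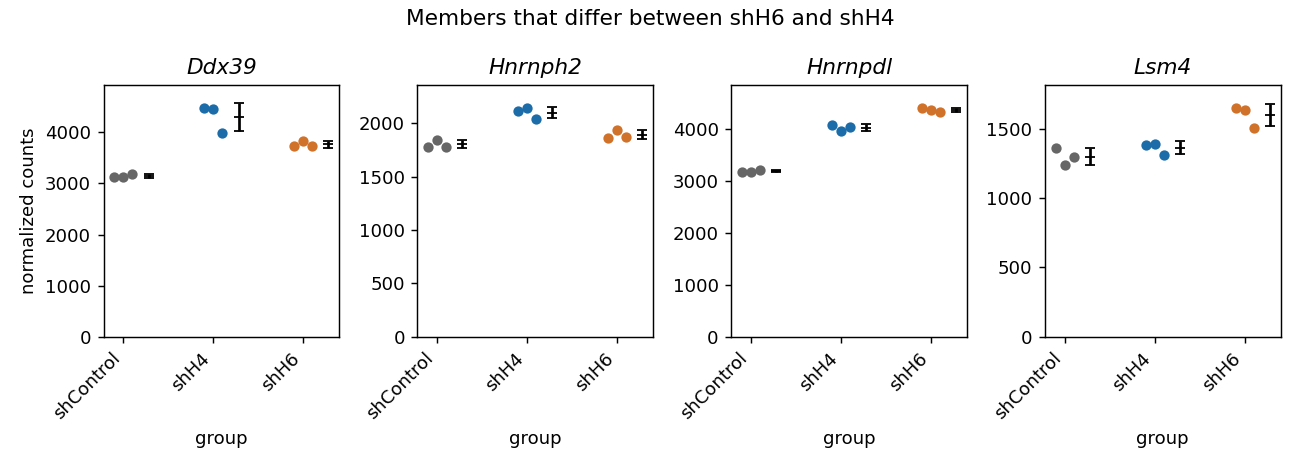
Normalized counts (y axis, from 0) of the 4 members that differed between the hairpins, in shControl, shH4 and shH6 (x axis); points are libraries and the bar with whiskers is the mean ± SD, n = 3. Ddx39 and Hnrnph2 are highest in shH4, Lsm4 and Hnrnpdl in shH6, and in each gene the shH4 and shH6 points do not overlap.

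Transcripts of the members were more abundant than those of the median listed gene, and similar in length. The median member had 1750 normalized counts and 608 per kb in shControl, against 992 and 301 for listed protein-coding genes. After Hnrnpa2b1, the highest levels per kb in shControl were those of Hnrnpf (7794), Ddx5 (4417), Srsf5 (4245) and Srsf2 (3632). The median transcript length was 3130 bases against 3216, and the median GC content 47.2% against 50.4%. A run of 4 stretches of 3 or more G separated by 1 to 7 bases, the letters of a possible G-quadruplex, was found in 22.3% of member transcripts on the sense strand and 22.1% of listed protein-coding transcripts, and on the opposite strand in 25.9% and 27.7%. Among promoter windows the same letters were in 26 of 122 member windows (21.3%) and 1369 of 4714 windows of listed protein-coding genes. Some members could not be measured cleanly: 18 shared over 20% of their 50-base windows with another gene, and 13 overlapped exons of another gene over more than 20% of their length. Srsf2 and Srsf4 overlapped Mettl23 and Gm12992 on the opposite strand over 37.3% and 67.9%, Clk3 overlapped Edc3 over 34.1%, and Snrpn overlapped Gm38393 on its own strand over 27.3%. The use of strand in counting was not stated, so reads of the opposite strand cannot be told apart.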

How the data were processed

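Total RNA of 9 dishes had been made into libraries with a stranded total RNA kit. Per the submitters' processing notes and the study's methods, the authors used Partek, STAR 2.7.8a and mm39, a median-ratio normalization, and DESeq2 for their own tests. The counting step, its annotation and its use of strand are not given in the sources used here. The deposited values are a signal per gene: a library's estimated reads over its size factor, so these are not raw counts. Between 78.6% and 80.7% of the values under 60 in a library were whole reads within 0.03, too few for a test on recovered reads. Column totals were 13.1 M to 13.6 M, and the number of reads sets the precision. All 9 value columns matched a label and none was left over. The table is a selected part of the genes: every one of its 5301 genes moved in the same direction with both hairpins, and the rule of selection was not stated.

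The 112 members were found by symbol among protein-coding genes of GENCODE M21 (GRCm38), which matched 5258 identifiers (99.2%), leaving out 2 helicase-named RNA sensors. Members and lists were chosen with earlier results of these data known. For the tests, limma 3.58.1 (R 4.3.3) was run on log2(value + 1), in 1 model with a mean per group over all 9 libraries and a trend on the mean, with Benjamini-Hochberg adjustment over all 5301 genes and a threshold of 0.05. The adjustment covers only these selected genes, and the effect of the unstated selection on the adjusted p-values was not tested. Fold changes are on the log2(value + 1) scale, and group values are mean ± SD. The procedure was tested on simulated data. Named genes were a list of 34 symbols (28 listed), the 8 members with the largest rises and the 8 with the largest falls, those that differed between the hairpins, and the extremes of each role; others were named after their values were seen. The alternatives were a pseudocount of 10, a filter at 10 normalized counts, upper-quartile and column-total scaling, a fit of only the compared groups, a replicate block, library weights, each library left out, and, chosen after seeing the data, leaving out members that share sequence with or overlap other genes.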

Additional observations from a re-analysis of the deposited data

Results flagged for a closer look

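4 members differed between the hairpins by the test of the difference itself, as log2 differences of shH6 minus shH4: Lsm4 by 0.23, Hnrnpdl by 0.12, Hnrnph2 by -0.15 and Ddx39 by -0.19. Their values in each library stand above, and no explanation was tested. Hnrnpdl no longer passed in 8 of the alternatives, among them without shControl replicate 3, any 1 shH4 library, or shH6 replicate 1 or 2 (0.11 to 0.13). Hnrnph2 no longer passed without shH4 replicate 1 or 2 or shH6 replicate 1 (-0.14), and Ddx39 without shH4 replicate 1 (-0.16, adjusted p = 0.0522). Lsm4 passed in every alternative run.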

How the results depend on the processing

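Of 2018 values recomputed under 18 settings, 1948 changed neither sign nor call, or moved by less than the spread between replicates, 51 fell below the threshold, 1 rose above it, 18 moved and 0 reversed. Among the settings that kept all libraries, scaling moved the member medians and the calls against shControl most. Upper-quartile scaling shifted the median of all listed genes by -0.06 and -0.05, gave member medians of 0.18 and 0.18, and took 13 member calls in each hairpin, all of them rises. Column-total scaling gave 0.27 and 0.27, and left 1 gene of the list of other spliceosome factors lower in shH6. Library weights raised the members that differed between the hairpins from 4 to 8. Without members of shared sequence the median in shH4 was 0.23, and without members that overlap another gene 0.23.

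Leaving out 1 library gave medians of 0.22 to 0.27 in shH4 and 0.21 to 0.26 in shH6, 87 to 91 members higher and 10 to 12 lower with both hairpins, and 1 to 3 genes of the list of other spliceosome factors lower in shH4. The members that differed between the hairpins ran from 1 (without shH4 replicate 1) to 5, with 2 without shH6 replicate 1. Replicate numbers did not pair the libraries (r from -0.155 to 0.108 between libraries of 1 number). With the replicate block no member call against shControl changed, and the Hnrnpdl difference of 0.12 no longer passed (adjusted p = 0.0502). Lines were not replicated. In the simulation only 67, 67 and 66 of 5301 genes were given log2 changes of 0.25, 0.5 and 1. About 49.25% of the changes of 0.25 were recovered, and 6.02% of the shH4 calls and 5.36% of the shH6 calls were false. Nearly every gene was called in the data, so these rates need not hold there, and small changes can be missed.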

Other observations

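Other spliceosome and RNA-processing genes outside the symbol families, a list of 125 drawn up with earlier results known, mostly rose. Of the 67 listed, 64 rose and 3 fell in shH4, where 49.2% of all listed genes rose and 46.5% fell. In shH6, 63 rose and 3 fell, against 49.1% and 46.9%. The median log2 fold changes were 0.27 and 0.22, against 0.10 and 0.09 over all listed genes, which reflect their balance of signs. Ncbp2, the small subunit of the nuclear cap-binding complex, rose most, from 686 ± 58.3 normalized counts in shControl to 1055 ± 69.6 and 1008 ± 16.3 (SD, n = 3 each). Wdr77, the partner of the arginine methyltransferase PRMT5 in Sm protein methylation, rose from 2062 ± 58.5 to 2825 ± 64.9 and 2882 ± 56.5. The 3 that fell were Cwc27, a spliceosomal cyclophilin (-0.19 and -0.26), and Syf2 and Xab2, of the complex that joins the activated spliceosome (-0.13 and -0.14, and -0.11 and -0.11). The Syf2 and Xab2 calls were small. In shH4 both were lost without shControl replicate 1 or shH4 replicate 1, and Syf2 also without shControl replicate 3 or shH4 replicate 2 and with column-total scaling (-0.10, adjusted p = 0.0598). In shH6, column-total scaling took both, shControl replicate 1 decided Xab2, and shControl replicate 3 and shH6 replicate 1 decided Syf2. Cwc27 was lost in shH4 without shControl replicate 3 (-0.16, adjusted p = 0.062). Between the hairpins 4 of the 67 (5.97%) differed, against 8.26% of all listed genes. Cdk12, a kinase of RNA polymerase II, differed by -0.29 (adjusted p = 0.000349), with 2673 ± 97.2 in shH4 and 2183 ± 91.1 in shH6. Dek, Cdc40 and Phf5a differed by -0.17, -0.20 and 0.18 (adjusted p = 0.00767, 0.0273 and 0.0397).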
